A study of Drosophila melanogaster and Drosophila simulans with 11 samples.

Results

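The *roX1* and *roX2* genes lie on the X chromosome of *Drosophila melanogaster* and encode the long non-coding RNAs of the male-specific lethal (MSL) complex. For each gene, a 110 kb window of X in release 5 coordinates was taken by position alone, 3.70 to 3.81 Mb for *roX1*, with the gene near 3.753 to 3.757 Mb, and 11.42 to 11.53 Mb for *roX2*, with the gene near 11.473 Mb. The windows are 2 of 201 when the rest of X is divided into 199 further windows of the same length. A 4 kb stretch of each window stands for the gene in what follows, 3.753 to 3.757 Mb for *roX1* and 11.471 to 11.475 Mb for *roX2*, because the exact release 5 gene models were not used here.

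The MSL complex raises the transcription of the single male X. It holds a *roX* RNA and the proteins MSL1, MSL2, MSL3, MOF and MLE. MSL2 is the subunit found only in males and binds DNA together with its partner MSL1, MOF acetylates lysine 16 of histone H4, and MLE is an RNA helicase that acts on the *roX* RNAs. Both *roX* genes are known high affinity sites, places where the complex binds X most readily and from which it is thought to spread to active genes in the neighbourhood. The genes that make the RNAs are therefore also places where the complex is found.

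Salivary glands of 3rd instar larvae were used, 125 per sample. Chromatin was precipitated with an antibody against MSL1, against MSL2 or against MOF (ChIP), and its DNA was compared by sequencing with the input, the DNA before precipitation. The *roX* mutants were y w males whose X carried roX1[ex6], a deletion within *roX1*, together with Df(1)roX2[52], a deletion that takes *roX2* and neighbouring genes, and with P[w+ 4Δ4.3], a transgene that supplies the neighbouring genes without *roX2*. They were selected as males that lacked a GFP-marked balancer chromosome, and the wild type was Oregon R, whose profiles the study also describes as those of males. Larvae of both genotypes were raised at 25°C. For *roX* mutants there were 3 libraries, 1 per antibody, and for wild type there were 2, of MSL2 and MOF, the wild type MSL1 sample having been lost. With 1 library per antibody and genotype the spread between replicates is unknown, no test between genotypes was possible, and every comparison below describes these libraries.

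A value is the ChIP over input ratio, in log2, at 1 position of a grid of 10 bp, so that 1 unit is a factor of 2. Many positions carry no value. The share of positions of X with a value was between 8.12% and 13.2% in the 3 *roX* mutant libraries, against 48.3% (MSL2) and 21.3% (MOF) in wild type. On the autosomal arms, the shares were between 40.7% and 67.6% in *roX* mutants, against 72.0% (MSL2) and 50.5% (MOF) in wild type. The median log2 ratio of X was 0.64 for MSL1, 0.23 for MSL2 and 0.24 for MOF in *roX* mutants, against 0.34 (MSL2) and 1.00 (MOF) in wild type. Levels are therefore read below against X of the same library. The number of reads behind a value is unknown. The SD printed with a peak height is the spread of the deposited values in the 500 bp around that peak and not an error between samples.

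At the 4 kb of *roX1*, fewer positions had a value in *roX* mutants than in wild type. In *roX* mutants, MSL1 had a value at 10.0% of them, with a mean log2 ratio of 0.11. MSL2 had one at 21.3%, with a mean of 0.35, and MOF at 1.5%, with a mean of 0.0062. The *roX* mutant shares over X were 10.8%, 13.2% and 8.12%. The gene was thus near X for MSL1, above it for MSL2 and below it for MOF. In wild type, MSL2 had a value at 95.3% of the positions, with a mean of 0.98, and MOF at 98.5%, with a mean of 2.02. The wild type gene was thus covered nearly end to end, whereas the mutant values were a few short runs.

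The share of positions with a value in the whole *roX1* window was 6.08% for MSL1, 19.5% for MSL2 and 5.16% for MOF in *roX* mutants, against 71.7% (MSL2) and 16.7% (MOF) in wild type. When each library's share was ranked against the 199 other windows of X, *roX1* took rank 120 for MSL1, 26 for MSL2 and 125 for MOF in *roX* mutants, and rank 23 (MSL2) and 105 (MOF) in wild type, out of 200. The wild type MOF values were gathered at the gene and the stretch to its left, while wild type MSL2 values covered the window.

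**Figure D1:**
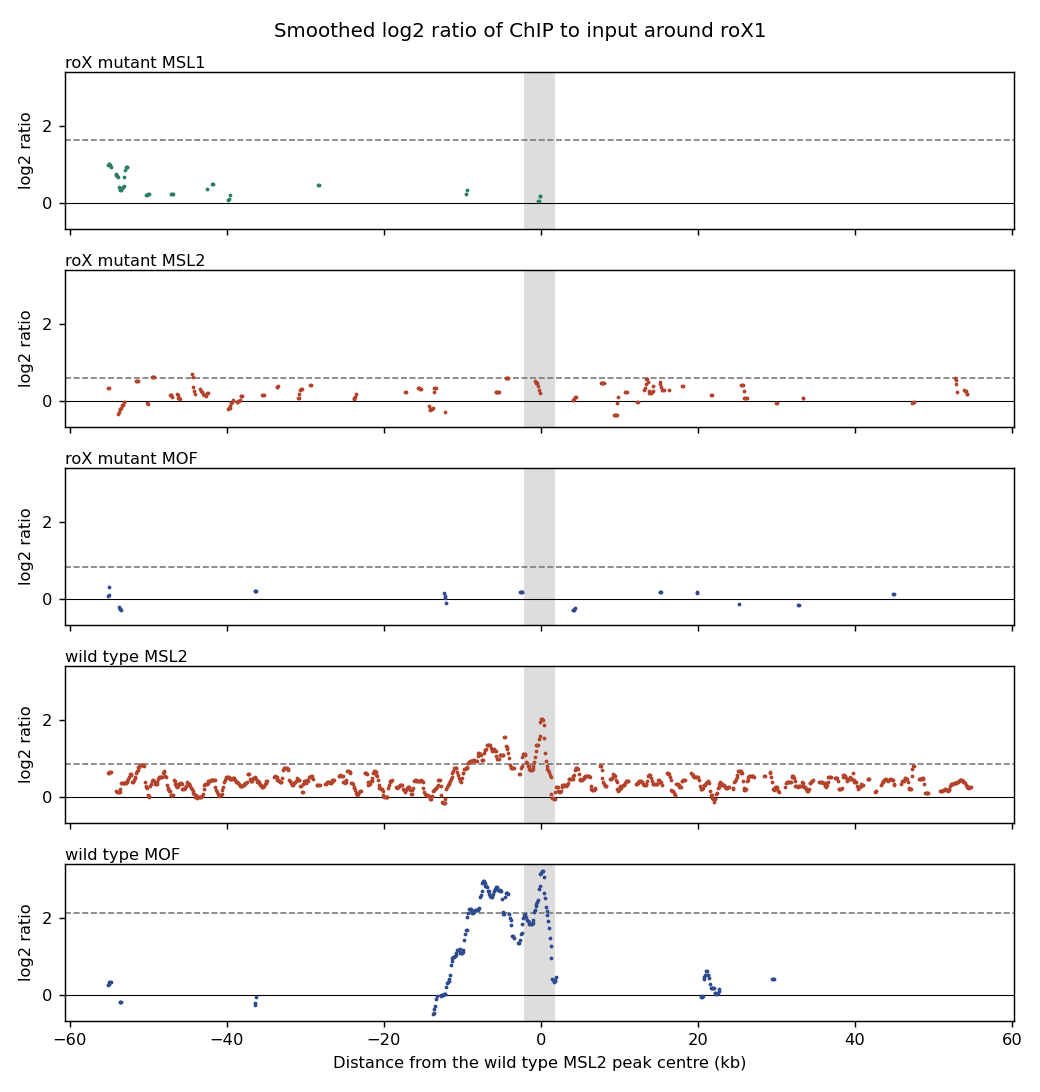
Smoothed log2 ratio of ChIP to input (vertical axis, median over 500 bp, a dot every 100 bp) against the distance from the wild type MSL2 peak centre in kb at *roX1*, with the 3 *roX* mutant libraries above the 2 wild type libraries. Grey marks the 4 kb of the gene and the dashed line the cutoff for a bound region in that library; wild type MSL2 peaks at 2.02 and wild type MOF at 3.22 in the gene, and no *roX* mutant dot at the gene reaches its dashed line.

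To define MSL-bound regions, the values were smoothed by the median over 500 bp and the highest 1.5 percent of the smoothed values of each library were joined into regions, as in the methods of the study. The lowest smoothed value called bound was 1.63 for MSL1, 0.60 for MSL2 and 0.81 for MOF in *roX* mutants, against 0.85 (MSL2) and 2.12 (MOF) in wild type. Over all of X, 172 regions were found for MSL1, 235 for MSL2 and 90 for MOF in *roX* mutants, against 771 (MSL2) and 438 (MOF) in wild type.

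No bound region lay over *roX1* in any *roX* mutant library. Of the smoothed positions of the *roX1* window, 0 of 417 were bound for *roX* mutant MSL1, where the background of X was 18.8%. For *roX* mutant MSL2, 60 of 1785 were bound, or 3.36%, against 4.90% of X. For *roX* mutant MOF, 0 of 305 were bound, against 11.2% of X. At the gene itself the counts were 0 of 39 for MSL1 and 0 of 68 for MSL2, and *roX* mutant MOF had no smoothed value there.

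The wild type shares at *roX1* stood above the background. Wild type MSL2 was bound at 201 of 400 smoothed positions of the gene, or 50.3%, against 10.7% of X, and at 8.02% of the whole window. Wild type MOF was bound at 163 of 400 smoothed positions of the gene, or 40.8%, against 19.3% of X, and at 33.6% of the window. Binding by MSL2 was therefore dense at the gene and no denser than elsewhere on X over the 110 kb.

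The strongest wild type MSL2 region at *roX1* ran from 3754290 to 3755830 on X, 1550 bp in length, with its peak centre at 3755150 and a value of 2.02 ± 0.26 (SD). The wild type MOF region at the same place ran from 3754300 to 3755920, 1630 bp in length, with its centre at 3755240 and a value of 3.22 ± 0.19 (SD). The centres of MSL2 and MOF were 90 bp apart, less than a smoothing window. Both peaks were sharp, the smoothed values staying within 1 log2 unit of the top over 1420 bp for MSL2 and 1440 bp for MOF.

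Further wild type regions lay to the left of the *roX1* peak and none to the right within the window. For MSL2, a region of 5310 bp from 3745890 to 3751190 had a value of 1.55 and a region of 700 bp from 3752760 to 3753450 a value of 1.10. For MOF, the stretch 3745920 to 3751090 held 3 regions with values of 2.23, 2.94 and 2.65. In the Release 6 gene order, the genes next to *roX1* on the left are *ec*, *CG2901* and *tRNA:Pro-CGG-3-1* and those on the right are *yin*, *CG2930* and *VhaAC39-1*. *ec* encodes a ubiquitin-specific protease, *yin* a peptide transporter and *VhaAC39-1* a subunit of the vacuolar proton pump.

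In *roX* mutants, the only bound regions of the *roX1* window were 2 short MSL2 regions far from the gene. They ran from 3705590 to 3705900 with a value of 0.61 and from 3710640 to 3710840 with a value of 0.70, 49.5 kb and 44.5 kb to the left of the wild type peak centre. Their ranks by value were 218 and 97 among the 235 *roX* mutant MSL2 regions of X. The highest smoothed *roX* mutant MSL2 value at the gene was 0.51, at 3754350 to the left of the wild type peak, and lay below the cutoff of 0.60.

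A run of positions without a value in any of the 3 *roX* mutant libraries began within *roX1*. It reached from 3755190 to 3758420, 3240 bp, and started 40 bp to the right of the wild type MSL2 peak centre. Wild type MSL2 or MOF had a value at 283 of its positions, or 87.3%. X held 63051 such runs of any length, of which 824 were of 3000 bp or longer. The one at *roX1* took rank 711 by length and rank 87 by the number of positions with a wild type value. A missing value and deleted DNA cannot be told apart from the length of this run.

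At the 4 kb of *roX2*, a value was present in *roX* mutants at 5.0% of the positions for MSL1, 8.5% for MSL2 and 4.75% for MOF, all at the left edge up to 11471360. The mean log2 ratio of these few positions was -0.35 for MSL1, -0.22 for MSL2 and -0.44 for MOF. Wild type had a value at 90.3% for MSL2 and 99.3% for MOF, with a mean of 0.92 for MSL2 and 2.22 for MOF. The 2 *roX* genes were alike in wild type mean, 0.98 and 0.92 for MSL2 and 2.02 and 2.22 for MOF at *roX1* and *roX2*, but the SD over the positions of the gene was larger at *roX1*, 0.57 against 0.30 for MSL2 and 0.77 against 0.23 for MOF.

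**Figure D2:**
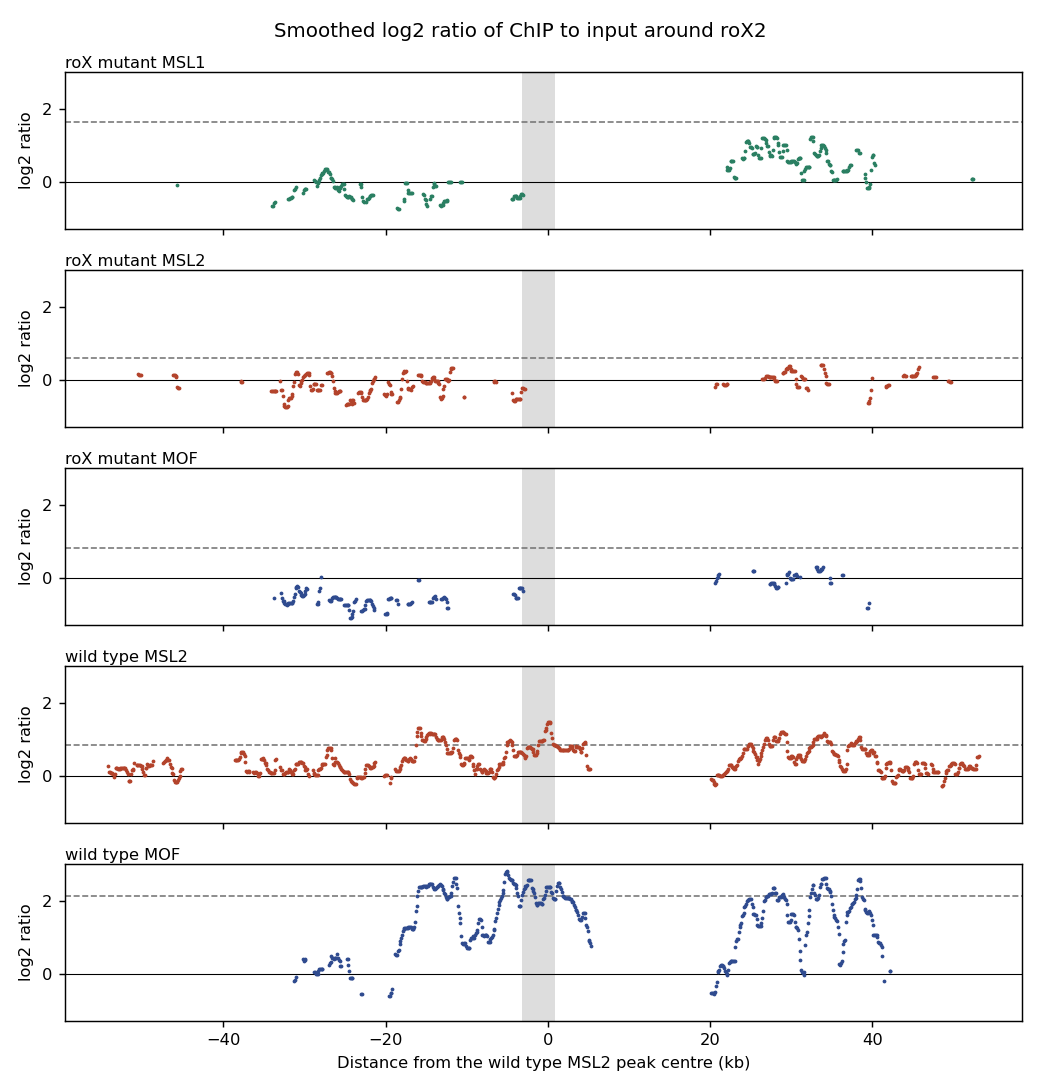
Smoothed log2 ratio of ChIP to input (vertical axis, median over 500 bp, a dot every 100 bp) against the distance from the wild type MSL2 peak centre in kb at *roX2*, with the 3 *roX* mutant libraries above the 2 wild type libraries. Grey marks the 4 kb taken for the gene and the dashed line the cutoff for a bound region; wild type MSL2 peaks at 1.48 in the gene, wild type MOF is highest at 2.82 to the left of it, and *roX* mutant dots to the left of the gene lie mostly below 0.

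No *roX* mutant library had a bound region anywhere in the *roX2* window. The bound smoothed positions were 0 of 3093 for MSL1, 0 of 3207 for MSL2 and 0 of 1957 for MOF, against 18.8%, 4.90% and 11.2% of X. The highest smoothed values in the window were 1.23 for MSL1, 0.42 for MSL2 and 0.38 for MOF, all to the right of the gene between 11502040 and 11507790. Windows of X without a bound region were frequent in *roX* mutants, 108 of the other 199 for MSL1, 82 for MSL2 and 142 for MOF, against 57 (MSL2) and 71 (MOF) in wild type.

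Wild type *roX2* had many bound regions, 11 for MSL2 and 10 for MOF in the window. By number of regions the window took rank 17 of 200 for MSL2 and rank 4 of 200 for MOF, where the median of the other windows was 2 for MSL2 and 1 for MOF. The *roX1* window, with 3 regions for MSL2 and 4 for MOF, took ranks 80 and 33. The bound share of smoothed positions at the *roX2* gene was 46.0% for MSL2 and 64.5% for MOF, and in the window 16.4% for MSL2 and 28.4% for MOF. Over all of X these shares were 10.7% for MSL2 and 19.3% for MOF.

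The strongest wild type MSL2 region of the *roX2* window lay over the gene, from 11472990 to 11474820 on X, 1840 bp in length, with its centre at 11474180 and a value of 1.48 ± 0.085 (SD). The wild type MOF region at that place ran from 11473750 to 11474730, with its centre 80 bp from that of MSL2 and a value of 2.39 ± 0.018 (SD). It was not the strongest MOF region. A region from 11468470 to 11470490, centred 5.1 kb to the left of the MSL2 peak, had a MOF value of 2.82 ± 0.10 (SD), and a region from 11470970 to 11472580, which overlaps the 4 kb of the gene, had 2.57 ± 0.10 (SD). With smoothing over 500 bp, MSL2 was thus highest at the gene and MOF highest beside it, whereas at *roX1* both were highest at the same place. This contrast did not hold with smoothing over 2000 bp, where the strongest MSL2 region at *roX2* lay off the gene, from 11457890 to 11462160, and the strongest MOF region at *roX1* lay off the gene, from 3746280 to 3750890.

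The MOF signal at *roX2* was broad. Smoothed wild type MOF values stayed within 1 log2 unit of the top over 9490 bp around the strongest region, and MSL2 values over 10170 bp. At *roX1* these widths were 1440 bp for MOF and 1420 bp for MSL2. Each width is counted down from the peak's own top, so a lower peak reaches nearer to the median of X, 0.34 for MSL2. A weaker MSL2 region of the *roX2* window, with a value of 0.95, had a width of 24120 bp. The MSL2 widths therefore reflect height as well as shape. The bound MSL2 regions themselves were 1840 bp at *roX2* and 1550 bp at *roX1*. The genes next to *roX2* on the left in the Release 6 order are *CG11695*, *e(y)2* and *CG11696*, and on the right *nod*, *pkm* and *CR43217*. *e(y)2* encodes a transcription and mRNA export factor and *nod* a kinesin-like protein that acts on chromosomes in female meiosis.

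To place the loci among the bound regions of X, the regions of each library were ranked by value. The *roX1* peak took rank 6 of 771 for wild type MSL2, with 99.2% of the X regions lower, and rank 36 of 438 for wild type MOF, with 91.8% lower. The *roX2* peak took rank 117 of 771 for wild type MSL2, with 84.8% lower, and the strongest MOF region of its window rank 135 of 438, with 69.2% lower. The MOF region centred on the *roX2* peak itself took rank 274. With smoothing over 500 bp, *roX1* was therefore among the strongest sites of X for MSL2, and *roX2* lay in the upper part of the list. With smoothing over 2000 bp, the region over *roX1* took rank 77 of 329 for MSL2.

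**Figure D3:**
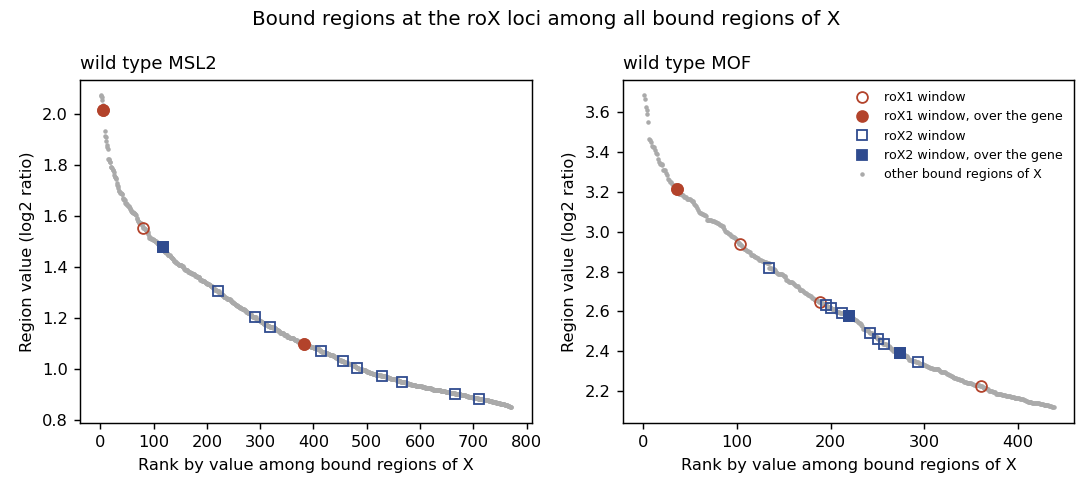
Value of each wild type bound region of X (vertical axis, log2 ratio) against its rank by value, for MSL2 on the left and MOF on the right. Circles are regions in the *roX1* window and squares those in the *roX2* window, filled where they overlap the 4 kb of the gene; the *roX1* peak sits at rank 6 of 771 for MSL2 and 36 of 438 for MOF, and the *roX2* peak at rank 117 for MSL2.

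The regions ranked next to *roX1* for wild type MSL2 were close to it in value. The 5 above it had values between 2.03 and 2.07 and began at 20919430, 15615780, 11757510, 7616640 and 11590890 on X, and the 5 below it had values between 1.90 and 2.00 and began at 2519230, 18547310, 19376170, 2119740 and 18265900. Their lengths were between 1790 and 12870 bp, so that *roX1*, at 1550 bp, was the shortest of these 11. By length, the *roX1* region took rank 259 of 771. The highest value on X was 2.07 for MSL2 and 3.68 for MOF.

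Around *roX2*, the differences in value between neighbouring ranks were small. The 5 wild type MSL2 regions ranked above it had values between 1.48 and 1.49 and began at 16848550, 19636760, 16502840, 19632860 and 9973050, and the 5 below it, between 1.46 and 1.47, began at 5579570, 8298000, 13997800, 1797370 and 8143570. For wild type MOF, the 5 regions above *roX1* had values between 3.22 and 3.24 and began at 9564630, 15693720, 11349150, 19386770 and 1355520, and the 5 below had values between 3.19 and 3.21 and began at 20900370, 10369180, 17494910, 5510640 and 7788230. The 5 above *roX2* for MOF had values between 2.84 and 2.85 and began at 20344200, 11054970, 12604570, 15637250 and 12654870, and the 5 below, between 2.81 and 2.82, began at 6261440, 9038390, 15362230, 8032970 and 19522760. All these gaps were smaller than the SD of the deposited values around the *roX* peaks. That SD does not measure the error of a region value, and with 1 library each the error of a rank is unknown.

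The highest smoothed value of the whole window gave a similar order. *roX1* took rank 6 of 200 windows for wild type MSL2 and rank 32 for wild type MOF, and *roX2* took ranks 84 and 93. In *roX* mutants, *roX1* took ranks 128, 74 and 157 and *roX2* ranks 107, 192 and 159 for MSL1, MSL2 and MOF. Neither window stood near the top of X in a *roX* mutant library.

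The fall of the signal with distance from the wild type MSL2 peak centre was unequal on the 2 sides of *roX1*. For wild type MSL2, the mean log2 ratio to the left was 1.30 at 0 to 1 kb, 0.80 at 1 to 2 kb, 0.96 at 2 to 5 kb and 1.04 at 5 to 10 kb, and then 0.26 at 10 to 20 kb. To the right it was 1.37 at 0 to 1 kb, 0.20 (median 0.097) at 1 to 2 kb, 0.42 at 2 to 5 kb and 0.42 at 5 to 10 kb, and 0.38 at 10 to 20 kb. At 20 to 50 kb it was 0.36 to the left and 0.35 to the right, close to the median of X of 0.34. The signal thus stayed high for 10 kb to the left and fell within 2 kb to the right.

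Wild type MOF showed the same sides at *roX1*. Its mean to the left was 2.46, 1.88, 1.97 and 2.40 in the bins up to 1, 2, 5 and 10 kb, with a value at 77% or more of the positions of each bin, and 0.48 at 10 to 20 kb. To the right it was 2.65 and 0.82 in the first 2 bins, and from 2 to 5 kb only 8 positions had a value, with a mean of 0.13. From 2 to 50 kb to the right, at most 8.3% of the positions of a bin had a value. In *roX* mutants, the highest mean of a bin within 10 kb of the *roX1* peak was 0.59, over 33 positions of MSL2 at 2 to 5 kb to the left, and the next was 0.37, over 61 positions of MSL2 at 0 to 1 kb to the left.

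At *roX2*, the wild type profile fell less steeply near the gene. For wild type MSL2, the mean was 1.12 on either side at 0 to 1 kb, 0.71 to the left and 0.75 to the right at 1 to 2 kb, and 0.72 on either side at 2 to 5 kb. It was then 0.26 to the left at 5 to 10 kb and rose again to 0.72 at 10 to 20 kb, where a region with a value of 1.31 lies. For wild type MOF, the means to the left were 2.12, 2.06, 2.38, 1.40 and 1.71 in the bins up to 1, 2, 5, 10 and 20 kb, and those to the right 2.19, 2.34 and 1.77 up to 5 kb. At 5 to 10 kb to the right, only 5.8% (MSL2) and 7.8% (MOF) of the positions had a value. No library had one from 11479660 to 11494230, so the profile further to the right is unknown. Where values were present, the MOF level around *roX2* was a plateau of about 10 kb with a second one to its left, and not a single peak.

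The fall was also set beside that at the other bound regions of X, averaged over both sides. At 0 to 1 kb, the mean for wild type MSL2 was 1.33 at *roX1* and 1.12 at *roX2*, against a median of 0.88 over 757 other X peaks, and 91.5% and 79.0% of these were lower. At 1 to 2 kb it was 0.54 at *roX1* and 0.73 at *roX2*, against 0.78 over 752 other peaks, with 14.4% and 42.0% lower. At 20 to 50 kb it was 0.36 and 0.40, against 0.42 over 739 other peaks. The *roX1* peak was thus high at its centre and, averaged over both sides, below most X peaks 1 to 2 kb away. That average joins 0.80 to the left and 0.20 to the right, so the low level lay on the right.

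For wild type MOF, each locus was centred on its own strongest region. At 0 to 1 kb the mean was 2.55 at *roX1* and 2.44 at *roX2*, against a median of 2.24 over 424 other X peaks. At 1 to 2 kb it was 1.36 at *roX1* and 1.69 at *roX2*, against 1.95, with 4.96% and 25.1% of 423 other peaks lower. At 5 to 10 kb it was 2.32 and 2.06, against 1.31 over the 376 other peaks with a level there, with 97.6% and 93.1% lower. At *roX1*, 51.4% of the positions of this bin had a value. Counted from the MSL2 peak centre, 494 positions with a value lay to the left and 20 to the right, so the *roX1* level is that of the left side. The high level at this distance comes from further bound regions in both windows. At 20 to 50 kb it was 0.18 at *roX1*, with a value at 5.05% of the positions, and 1.25 at *roX2*, against 1.18 over 246 other peaks.

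Wild type MSL2 and MOF were related along both loci. Over positions with a value in both, Pearson's r was 0.90 at *roX1* (1695 positions) and 0.81 at *roX2* (4642 positions), against 0.85 over X (411227 positions). These positions are neighbours on the chromosome and both ratios share an input, so r is a description. Of the 3 MSL2 regions at *roX1*, 2 overlapped a MOF region, and all 4 MOF regions overlapped an MSL2 region. At *roX2*, 8 of 11 MSL2 regions, or 72.7%, and 8 of 10 MOF regions, or 80.0%, overlapped the other protein, against 51.5% of the MSL2 regions and 92.7% of the MOF regions of X.

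Over the whole *roX2* window, values were present in *roX* mutants at 23.8% of positions for MSL1, 27.4% for MSL2 and 16.6% for MOF. Wild type had 65.9% for MSL2 and 45.0% for MOF. The ranks among 200 windows were 19, 7 and 17 in *roX* mutants, and 41 and 25 in wild type. Within this well covered window lay a run of 23190 bp without a value in any of the 3 *roX* mutant libraries, from 11471370 to 11494550. It contains the wild type MSL2 peak and spans from 2.8 kb to the left of its centre to 20.4 kb to the right. Wild type MSL2 or MOF had a value at 840 positions of the run, or 36.2%, with a mean of 0.77 for MSL2 and 1.91 for MOF. The run took rank 19 by length among the 63051 runs of X, 25 of which were of 20 kb or longer, and rank 2 by positions with a wild type value, after a run from 2690560 to 2818590 with 1571 such positions.

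Part of this run had no value in wild type either. From 11479660 to 11494230, 14580 bp, no value was present in any of the 5 libraries. In the Release 6 order, *nod* and *pkm* are followed to the right of *roX2* by a row of 7 pseudogenes, *CR43217* to *CR43211*, before the next gene, *rho-4*. Only uniquely mapped reads were used by the authors, and whether this row corresponds to the stretch without values was not tested.

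**Figure D4:**
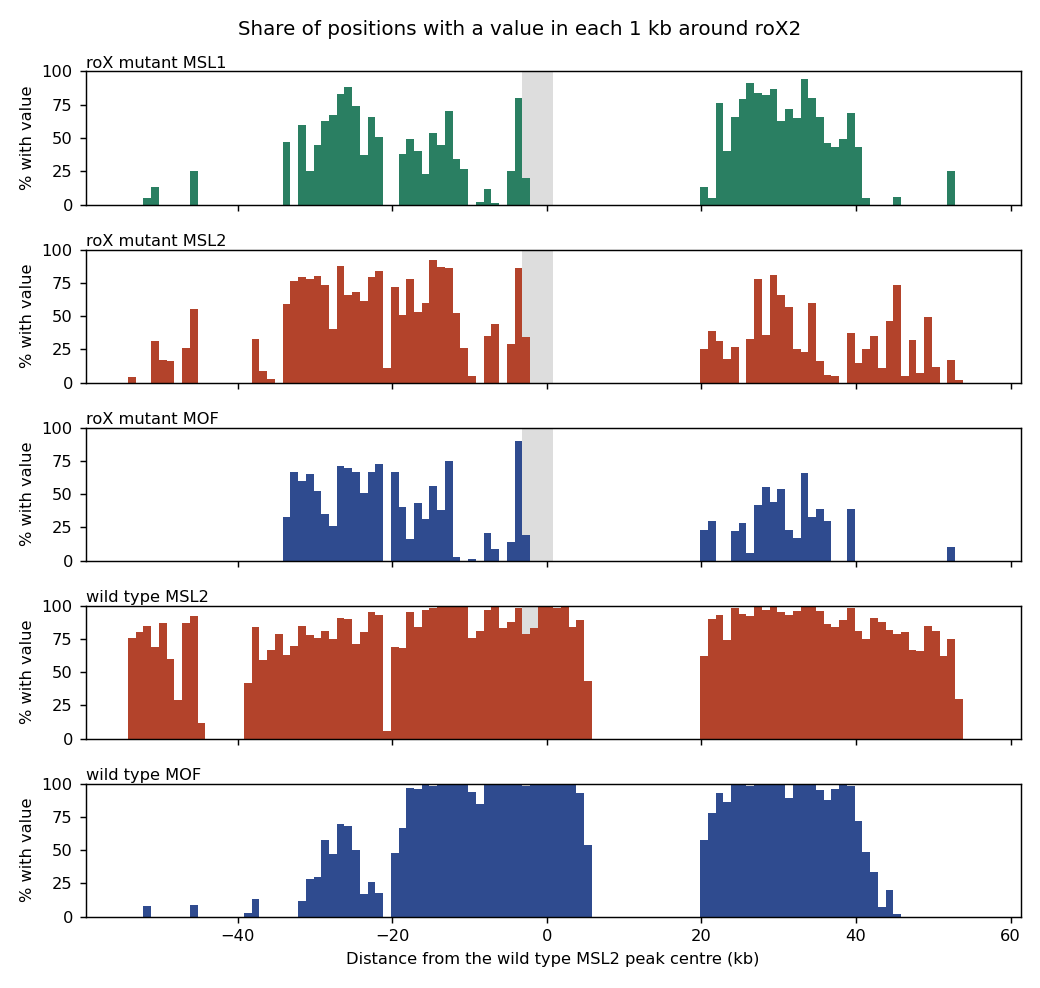
Share of positions with a value in each 1 kb (vertical axis, percent) against the distance from the wild type MSL2 peak centre in kb at *roX2*, with the 3 *roX* mutant libraries above the 2 wild type libraries and the 4 kb of the gene in grey. All 3 *roX* mutant libraries are empty for 23190 bp that include most of the gene. In a block of 31260 bp directly to the left of this run, MSL1, MSL2 and MOF have values at 39.2%, 58.3% and 40.3% of positions. The cover of the block is uneven, and the 1 kb from 11468000 is empty in all 3. Wild type MSL2 has values on both sides of the left end of this block, and wild type MOF has few to the left of it.

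The stretch directly to the left of this run stood apart in *roX* mutants. It was delimited after the values had been seen, from 11440110, where *roX* mutant MOF values begin, to 11471360, 31260 bp. The share of positions with a value was 39.2% for MSL1, 58.3% for MSL2 and 40.3% for MOF in *roX* mutants, against 83.5% (MSL2) and 65.4% (MOF) in wild type. In the 20110 bp further left, the shares in *roX* mutants were 2.19%, 10.0% and 0%, against 50.5% (MSL2) and 1.64% (MOF) in wild type. For *roX* mutant MOF this step follows from how the edge was set. The *roX* mutant MSL1 and MSL2 shares also rose across it, and wild type MSL2 had values on both sides. The wild type MOF share rose as well, from 1.64% to 65.4%, so a rise at this edge was not particular to *roX* mutants.

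The median ratio of this stretch was negative in all 3 *roX* mutant libraries, which share an input, so the 3 signs are not independent. The median log2 ratio was -0.29 ± 0.30 for MSL1, -0.20 ± 0.29 for MSL2 and -0.56 ± 0.24 for MOF in *roX* mutants, against 0.34 ± 0.38 (MSL2) and 1.28 ± 0.94 (MOF) in wild type (SD over positions). The medians of the autosomal arms were -0.023, 0.0049 and 0.027 for MSL1, MSL2 and MOF in *roX* mutants, so that the stretch lay below the arms as well as below the rest of X. The shares with a value on the arms were 40.7%, 65.9% and 67.6%, against 39.2%, 58.3% and 40.3% in the stretch. Over X they were 10.8%, 13.2% and 8.12%. Whether the low ratios come from the ChIP DNA or the input cannot be told apart.

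Set beside 713 tiles of X of the same length, the stretch had an unusually low median in *roX* mutants and an unremarkable median in wild type. Its median was lower than that of all 419 tiles with enough values for MSL1 and of all 486 for MOF in *roX* mutants, and 1 of 657 tiles was lower for MSL2. In wild type, 435 of 676 tiles were lower for MSL2 and 331 of 464 for MOF. By share of positions with a value it took rank 43, 1 and 5 for MSL1, MSL2 and MOF in *roX* mutants, and rank 48 and 63 for MSL2 and MOF in wild type. Both edges of the stretch were set by where *roX* mutant values begin and end, whereas the tiles lay on a fixed grid. Its *roX* mutant ranks by share are therefore favoured by that choice and are a description only. By share, *roX* mutant MSL1 was placed much as the wild type libraries were. Tiles with at least as many values had medians from 0.45 to 3.31 for *roX* mutant MSL1 (42 tiles) and from 0.22 to 1.51 for *roX* mutant MOF (4 tiles), and there was no such tile for *roX* mutant MSL2.

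**Figure D5:**
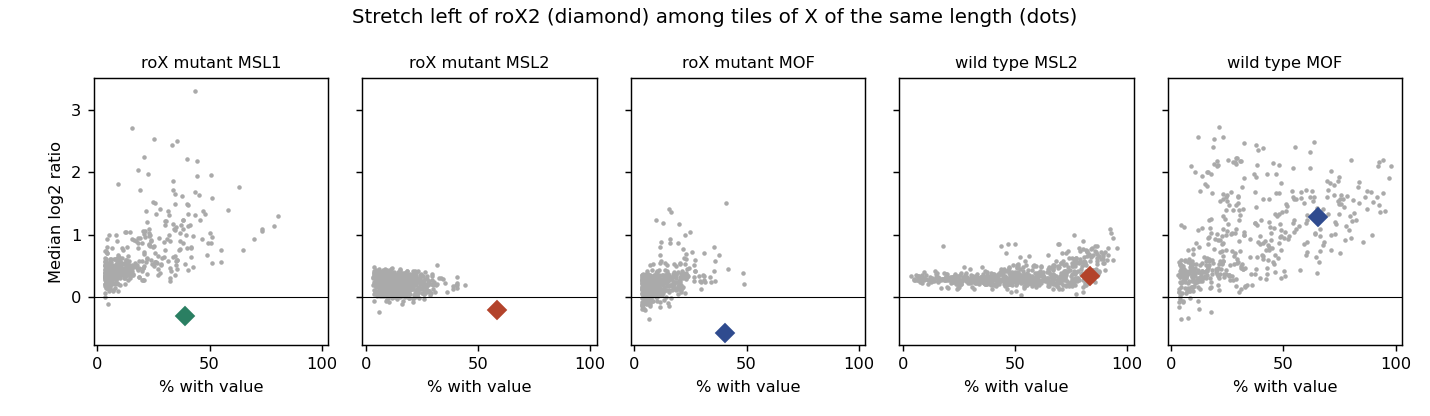
Median log2 ratio (vertical axis) against the share of positions with a value (horizontal axis, percent) for tiles of X of 31260 bp (dots) and for the stretch to the left of *roX2* (diamond), with the 3 *roX* mutant libraries left of the 2 wild type libraries. The diamond lies below 0 and apart from the dots in *roX* mutants, at -0.29, -0.20 and -0.56, and among the dots in wild type, at 0.34 and 1.28.

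To the right of the run, from 11494560 to the end of the window, the *roX* mutant libraries differed from each other. The median log2 ratio was 0.65 ± 0.38 for MSL1, 0.082 ± 0.22 for MSL2 and 0.035 ± 0.27 for MOF in *roX* mutants, against 0.47 ± 0.38 (MSL2) and 1.66 ± 0.82 (MOF) in wild type (SD over positions). The share of positions with a value was 38.1%, 28.0% and 15.8% for MSL1, MSL2 and MOF in *roX* mutants, against 80.3% (MSL2) and 57.4% (MOF) in wild type. The MSL1 median on this side was close to the median of X of that library, 0.64, and no smoothed MSL1 value there reached the cutoff of 1.63.

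The antibodies with a library in both genotypes, MSL2 and MOF, were compared over positions with a value in both. At the 4 kb of *roX1*, the MSL2 mean was 0.35 in *roX* mutants and 1.20 in wild type over 85 positions, a difference of -0.85 ± 0.39 (SD of the differences), where the difference over X was -0.28 ± 0.45. In the *roX1* window it was -0.22 ± 0.34 over 1944 positions, no larger than that of X, and -0.027 after the median of the autosomal arms of each library had been subtracted. For MOF, 6 positions of the *roX1* gene were shared, too few to describe the gene, and in the window the difference was -0.42 ± 0.75 over 154 positions, or -0.21 by the median, against a mean of -1.19 ± 0.87 over X.

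At the *roX2* window, the MSL2 mean was -0.10 in *roX* mutants and 0.45 in wild type, a difference of -0.55 ± 0.41 over 2843 positions, or -0.36 after subtraction of the arm medians. The MOF mean was -0.32 in *roX* mutants and 1.30 in wild type, a difference of -1.62 ± 0.94 over 1356 positions. Both were further below 0 than the differences of X, by less than 1 SD of the differences between positions. In the stretch to the left of the gene, the differences were -0.62 for MSL2 and -1.62 for MOF, and to the right of the run they were -0.49 for MSL2 and -1.61 for MOF. These differences cover only the positions measured in both genotypes and are set by the input of each genotype as well as by the ChIP DNA, and the 2 cannot be told apart in the ratios.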

How the data were processed

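Chromatin of larval salivary glands was analysed by ChIP-seq on the AB SOLiD platform. The authors used Bioscope to align uniquely mapped reads to release 5. The deposited values are log2 ratios of ChIP over input at every 10 bp. How ChIP was scaled to input, why positions lack a value and the depth per sample were not given in the sources used here. Read counts were not used.

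The windows and lists were chosen with earlier results of these data known. Values were smoothed by the median over 500 bp with at least 25 values, and the highest 1.5 percent were joined over gaps of up to 200 bp into regions of at least 200 bp and 5 units. A region's value is the average over its 5 highest consecutive smoothed values. Medians of tiles needed 100 values. The items named by rule were the *roX* genes, 3 neighbours on each side from Release 6, with no coordinates of that release, and the 5 regions ranked directly above and below each *roX* peak. No sequence was printed and no motif was searched. The region procedure was tested on simulated data. No test was made, because each antibody and genotype has 1 library. Alternatives were other stretches, smoothing windows, cutoffs, joining distances, summaries and reference levels. A value counted as moved when it changed by more than the SD of the values within 500 bp of the peak, by more than the SD over positions, by over 1.5 times for ranks, widths and lengths, or beyond the 95% Wilson interval for a share. The 3 *D. simulans* files were not used. The tools were matplotlib 3.10.9, scipy 1.17.1, pandas 2.3.3 and numpy 2.4.6 in Python 3.11.15.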

Additional observations from a re-analysis of the deposited data

Results flagged for a closer look

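In 4 stretches, the median log2 ratio minus the median of X of the same library was negative in all 3 *roX* mutant libraries and positive in both wild type libraries. In the *roX1* window it was -0.32 for MSL1, -0.0097 for MSL2 and -0.20 for MOF in *roX* mutants, against wild type values of 0.050 for MSL2 and 0.62 for MOF. In the *roX2* window it was -0.51, -0.29 and -0.72 for MSL1, MSL2 and MOF in *roX* mutants, against wild type values of 0.065 for MSL2 and 0.71 for MOF. In the 20 kb around *roX2* it was -1.004, -0.51 and -0.60 in *roX* mutants, against 0.32 and 0.94 in wild type. In the stretch to the left of *roX2* it was -0.94, -0.42 and -0.81 in *roX* mutants, against 0.0051 and 0.28 in wild type. The stretches at *roX2* overlap each other and are not separate results. In the 20 kb around *roX2*, *roX* mutant values end at 11471360, whereas wild type values include the gene peak. Other stretches examined did not hold the pattern. In *roX* mutants, MSL2 was positive at the *roX1* gene (0.14) and in its 20 kb (0.034), and MSL1 to the right of the run (0.0055). The *roX2* gene had too few *roX* mutant values. The difference between the genotypes was not tested. Libraries of the same genotype were divided by a common input, so the signs within a genotype are not independent, and the MSL2 value of the *roX1* window in *roX* mutants is close to 0.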

How the results depend on the processing

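The shares of positions with a value moved with the stretch taken. In the 20 kb around *roX1* they were 3.95%, 17.2% and 4.45% for MSL1, MSL2 and MOF in *roX* mutants, against wild type shares of 80.8% for MSL2 and 57.7% for MOF, and around *roX2* 8.35%, 13.0% and 7.70% in *roX* mutants, against 74.9% and 81.1% in wild type. At the gene alone they were 10.0%, 21.3% and 1.5% in *roX* mutants and 95.3% and 98.5% in wild type for *roX1*, and 5.0%, 8.5% and 4.75% in *roX* mutants and 90.3% and 99.3% in wild type for *roX2*. Ranked by length, the wild type MSL2 region took rank 259 at *roX1* and 221 at *roX2*, and the MOF region rank 209 at *roX1*. Smoothed over 2000 bp, the strongest MSL2 region of the *roX1* window stayed over the gene, with a value of 1.35 and rank 77. The strongest MOF region there was another one, off the gene from 3746280 to 3750890, with 2.76 and rank 85. At *roX2*, the strongest MSL2 region was also another one, off the gene from 11457890 to 11462160, with 1.14, and the strongest MOF region had 2.49. Widths followed the cutoff. With the highest 1 percent bound, the *roX2* MSL2 region was 1060 bp and the *roX1* MOF region 1070 bp. With 3 percent, the *roX2* MSL2 region was 5220 bp, the *roX1* MOF region 3810 bp and the *roX2* MOF region 11180 bp. With 5 percent, the widths were 3740 bp and 6100 bp for MSL2 and 4190 bp and 11770 bp for MOF at *roX1* and *roX2*. Joined over 500 bp, the *roX2* MOF region was 4120 bp. With each library at its own positions, the MOF difference in the *roX1* window, *roX* mutant minus wild type, was -1.40. By the median, wild type MOF 5 to 10 kb to the right of *roX1* was 0.033, where the mean was -0.0047, over 20 positions. Less than the SD over positions, but over 1.5 times, were the moves of 5 values. The MSL2 difference after subtraction of the arm medians was -0.027 in the *roX1* window and -0.36 in the *roX2* window, and the MOF difference in the *roX1* window was -0.21 by the median. By the median, wild type MSL2 1 to 2 kb to the right of *roX1* was 0.097, and wild type MOF 20 to 50 kb to the left was -0.063. The other values computed kept their direction and stayed within these limits, and the cause of the moves was not tested. Leaving off 5 kb at each end of the stretch to the left of *roX2*, an alternative added after the data were seen, moved its medians by less than their SD over positions. No paired analysis was possible because each antibody and genotype has 1 library. Depth is unknown, so that a position without a value does not show the absence of DNA or of binding.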
